A study of Oryza sativa with 2 samples.

Results

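The stress-associated proteins (SAPs) of rice, Oryza sativa, are small zinc-finger proteins that carry an AN1 zinc finger, an A20 zinc finger or both. The A20 finger is known from human proteins to bind ubiquitin, the tag that marks proteins for degradation or signalling, and some plant SAPs act as ubiquitin ligases. In rice the family is best known for transcripts that accumulate under cold, salt, drought and wounding, and for stress tolerance in plants engineered to overexpress a SAP gene. SAP17 (LOC4346945) carries AN1 fingers, SAP4 (LOC4328609) an A20 and an AN1 finger, and SAP16 (LOC4343653) AN1 fingers beside C2H2 fingers.

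The members described here are 3 genes, SAP17, SAP4 and SAP16, out of 15798 genes with a probe of their own. They were chosen by name and by their measured ratio of irradiated over control on these same arrays. Those ratios are therefore given as a description, with no test. Each member had 1 probe. The other 10 genes named SAP plus a number in the gene table used here had 11 probes, and serve as background. All 14 SAP probes had a value on both arrays, and no filter on low values was applied.

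Whole rice seedlings, 7 days old and grown on MS medium in a growth chamber, received carbon ion beams, radiation that deposits its energy densely along each track, for 2 h 35 min. Control seedlings were healthy and untreated. The sources used here do not give the cultivar, the radiation dose or the time from exposure to harvest. Total RNA of both groups was compared on 2 two-colour arrays, taken to share a pair of extracts because their labels give the same replicate number. The first array held irradiated RNA in Cy5 and control RNA in Cy3, and the second held the same RNAs with exchanged dyes, here called the swapped array. With 1 replicate per group, the spread between seedlings was not measured, and the small number of arrays limits the precision of every value. The question was which transcripts differ between irradiated and untreated seedlings.

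Each ratio below is the log2 of irradiated over control once the intensity trend of its array was removed. The direction is likely and not certain, because the deposited values were taken to be Cy5 over Cy3. Under Cy3 over Cy5 every ratio below would change sign, and the intensities of each spot below would exchange channels. The swapped array was turned, since the labels exchange its dyes. Left unturned, its values below would change sign. Of 22574 probes with a value on each array, 433 (1.92%) were higher by at least 2-fold on both and 58 (0.257%) were lower by as much. Once the swapped array was turned, the arrays correlated at r = -0.28 across all probes and at r = 0.61 across the brightest 2 deciles, and probes are not independent replicates. The deciles rank probes by recovered spot intensity, from 1, the dimmest, to 10. All 5 named photosynthesis probes, markers of green shoot, lay in the brightest 2 deciles. In whole seedlings, fewer cells of a type and less RNA per cell cannot be told apart.

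SAP17 was the highest of the SAP transcripts, and SAP4 the only other one that was at least 2-fold higher on both arrays. SAP16 passed 2-fold on the swapped array alone. Thus 2 of 14 SAP probes passed 2-fold upwards on both arrays, against 1.92% of all probes, and 0 were lower, against 0.257%. These ratios helped to choose the members, so nothing is read from that share.

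The SAP17 spot on the first array had a recovered intensity of 3492 in Cy5, the irradiated sample, and 124 in Cy3, the control. On the swapped array it had 422 in Cy5, now the control, and 2003 in Cy3, now the irradiated sample. The brighter dye thus changed with the sample. Read as Cy5 over Cy3, the irradiated sample was brighter on both arrays before any normalization, and read as Cy3 over Cy5 the control was. Relative to the intensity trend, the log2 ratios were 3.81 (first array) and 3.94 (swapped array). The mean of 3.87 corresponds to 14.7-fold. The intensities on the first array were inferred, since its deposited value gives the terms 873 and 31 and a common factor of 4 was restored. Over the likely factors, from 3 to 5, the ratio on that array lay between 3.73 and 3.94. With no factor restored it was 4.83. By the mean SAP17 stood at rank 14 of all 22574 probes, and by the lower of its values on the arrays at rank 12. Its probe lay in decile 9, where it was rank 4 of 2257 probes by that lower value.

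**Figure D1:**
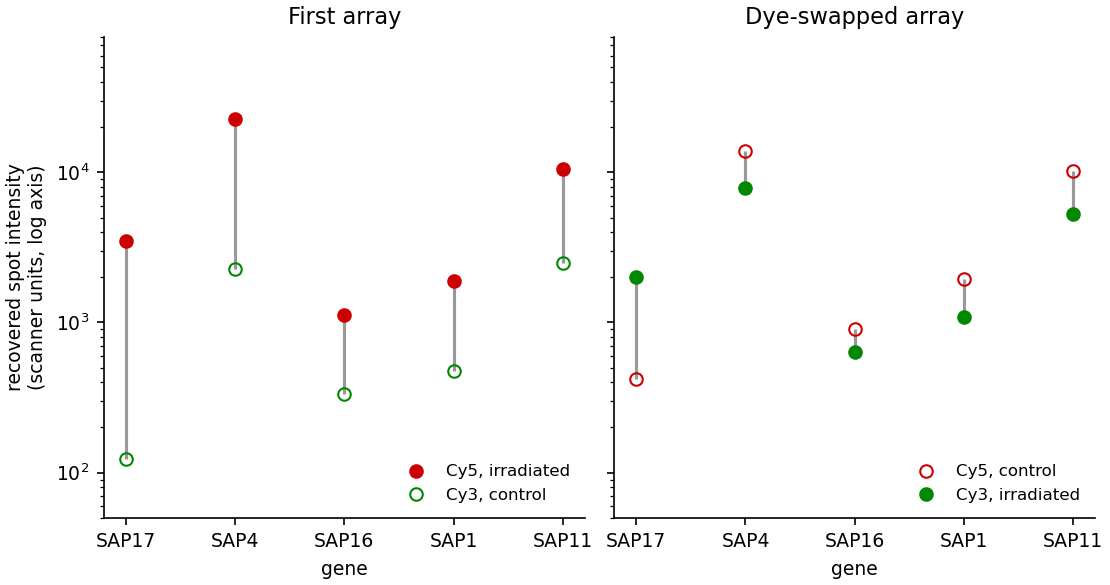
Recovered spot intensity in scanner units (log axis) of the probes of SAP17, SAP4, SAP16, SAP1 and SAP11 on the first array (left) and the dye-swapped array (right). Filled points are irradiated and open points control RNA, with Cy5 in red and Cy3 in green, and each grey line joins the channels of a spot. Read as Cy5 over Cy3, the irradiated channel of SAP17 was the brighter on both arrays, 3492 against 124 and 2003 against 422. For the other genes, on the same reading, Cy5 was the brighter dye on both arrays.

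SAP4 had one of the brighter probes, in decile 10. On the first array its recovered intensities were 22689 in the irradiated channel and 2279 in the control channel. On the swapped array they were 7887 in the irradiated channel and 13827 in the control channel, so that as scanned the control was brighter there. Spots of that brightness had a typical deposited value of 0.64 log10 units on the swapped array, against 0.24 for SAP4. Relative to this trend the irradiated sample was higher on both arrays, with log2 ratios of 1.91 and 1.33. The mean of 1.62 corresponds to 3.07-fold, at rank 266 of 22574. The value of SAP4 on the swapped array thus rests on the removal of the dye trend. With each array centred on its median instead, its ratios were 3.15 (first array) and -0.14 (swapped array), with a mean of 1.5. On the swapped array SAP16, at 0.16, SAP1, at -0.18, and SAP11, at -0.27, likewise fell below 2-fold with median centring, while SAP17 had 2.92.

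The intensity of the SAP4 spot on the swapped array was itself inferred. Its deposited value gives the terms 419 and 239, and a common factor of 33 was restored to bring the spot close to its brightness on the first array. Over all factors that were likely, from 27 to 38, the ratio on that array lay between 1.31 and 1.34. With no factor restored it was 0.25, and the mean of both arrays was 1.07. The ratio of the channels is fixed by the deposited value, so that only the trend value subtracted from it moved.

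SAP16, known from natural variation in germination at low temperature, was higher on both arrays by a smaller amount. Its intensities were 1130 in the irradiated and 334 in the control channel on the first array. On the swapped array they were 632 in the irradiated and 901 in the control channel. The log2 ratios were 0.78 and 1.09, and the mean of 0.93 corresponds to 1.91-fold. The restored factor on the first array was 2, and a factor of 1 was also likely, which would give 1.19 on that array and a mean of 1.14. SAP16 would then have been at least 2-fold higher on both arrays, so its place on either side of 2-fold depends on that factor.

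**Figure D2:**
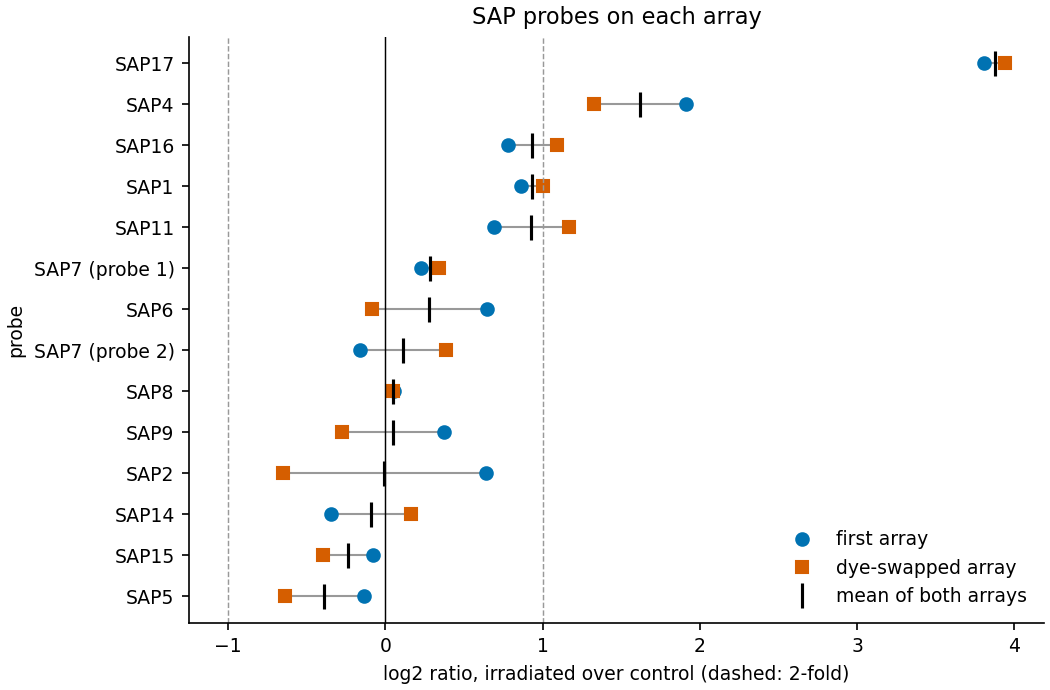
Log2 ratio of irradiated over control of all 14 SAP probes on the first array (circles), on the dye-swapped array (squares) and as the mean of both (black bars), with grey lines joining the arrays and dashed lines at 2-fold. SAP17 stands apart at 3.81 and 3.94, SAP4 follows at 1.91 and 1.33, and SAP16, SAP1 and SAP11 share means of 0.93.

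The rest of the family held 2 genes at the level of SAP16. SAP1, whose transcript is known to respond to cold, salt, drought and wounding, had ratios of 0.86 and 1.0 and a mean of 0.93. SAP11, which in rice binds a receptor-like cytoplasmic kinase, had 0.69 and 1.17 and a mean of 0.93. SAP16, SAP1 and SAP11 thus had the same mean to 2 decimals, although SAP16 is a member and SAP1 and SAP11 are background. The probes of SAP1 and SAP11 were in decile 10, and only a factor of 1 for SAP1 on both arrays, and of 2 and 1 for SAP11, was likely.

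The remaining SAP transcripts had means between -0.39 and 0.28. SAP7, which has been studied in transgenic Arabidopsis for its part in responses to abscisic acid, had 2 probes. The brighter one stood at 0.23 and 0.34 on the arrays and the other at -0.16 and 0.39, so that both probes of this gene lay within 1.5-fold of 1 on each array. SAP8, whose transcript is known to respond to several stresses, stood at 0.053 and 0.047, close to equal in irradiated and control seedlings. SAP9, a further gene with an A20 and an AN1 finger, stood at 0.37 and -0.28.

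Arrays disagreed in sign for SAP6, SAP9, SAP2, SAP14 and the dimmer SAP7 probe. SAP6 stood at 0.65 and -0.085. SAP2 had the widest gap, at 0.64 and -0.65, so that on both arrays its Cy5 channel was brighter than the trend. SAP14, with the dimmest SAP probe, in decile 4, stood at -0.35 and 0.16. SAP15 and SAP5 were below 0 on both arrays, SAP15 at -0.078 and -0.40 and SAP5 at -0.14 and -0.64. For SAP5 the swapped value lay anywhere between -1.74 and -0.25 over the likely factors, and for SAP14 between 0.16 and 1.24, so neither can be placed closely.

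The 14 SAP probes include those of the members, which were chosen by their ratios. Of the 14, 7 were above 0 on both arrays, 2 below 0 on both and 5 of opposite sign. The median of their means was 0.20. Over all 22574 probes, 5014 were above 0 on both arrays (22.2%), 4928 below 0 on both and 12632 of opposite sign (56.0%). The median over all probes was -0.0054. Without SAP17, SAP4 and SAP16 the 11 other SAP probes had a median of 0.05, with 4 above 0 on both arrays, 2 below and 5 opposed. SAP probes were bright, with 10 of 14 in the brightest 2 deciles and 1 in the dimmer 5. The turned arrays correlated at r = 0.61 in those 2 deciles and at r = -0.28 across all probes. The shares over all probes are thus no background of like brightness.

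**Figure D3:**
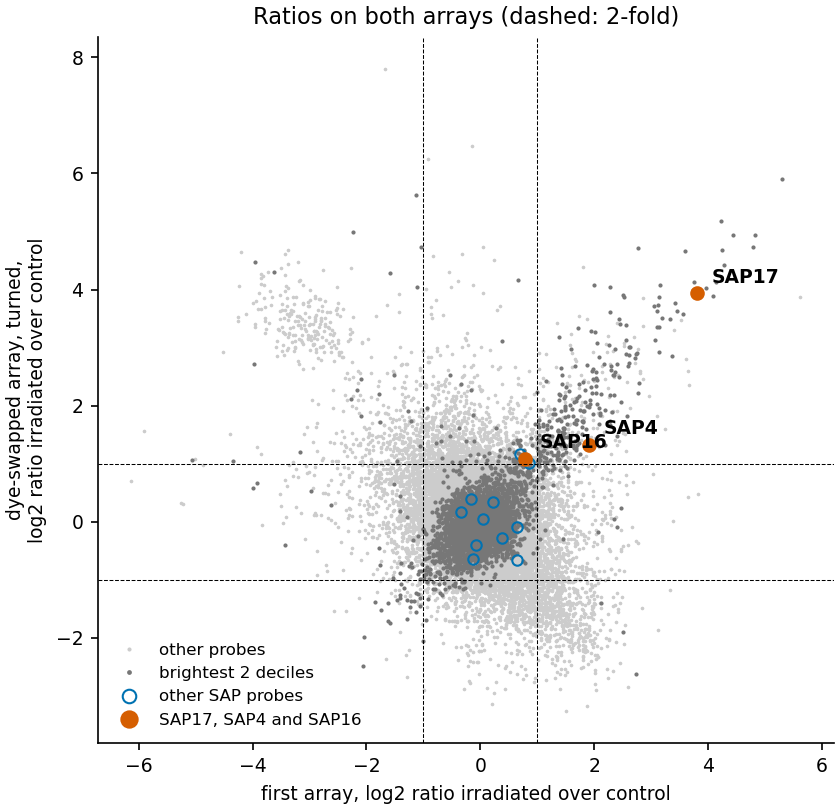
Log2 ratio of irradiated over control on the first array (horizontal) and on the dye-swapped array after its sign was turned (vertical) for all 22574 probes. Dark grey marks the brightest 2 deciles, open circles the other SAP probes, filled circles SAP17, SAP4 and SAP16, and dashed lines 2-fold. SAP17 lies far out on the rising diagonal, at 3.81 and 3.94, and the cluster at the upper left holds spots that follow the dye on both arrays.

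The part of a ratio that follows the dye was taken as (first minus swapped) divided by 2. It holds dye bias and noise, and over all probes of a decile gives a scale for the technical error of a mean. The members were chosen by their ratios on these arrays, and choosing ratios high on both can favour a small dye part. For the members it is therefore no independent check. The robust SD of the dye part was 0.21 in decile 9 and 0.19 in decile 10, and rose to 0.94 in decile 1. For SAP17 the dye part was -0.066, or 0.32 times that SD. For SAP16 it was -0.15, or 0.75 times, and for SAP4 0.29, or 1.52 times. Among the other bright probes it was -0.071 for SAP1, -0.24 for SAP11 and 0.0029 for SAP8.

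This dye part compares arrays of the same extracts. It says nothing of the spread between seedlings, which these arrays did not measure. For SAP2 it was 0.64, or 1.92 times the robust SD of decile 7, while the mean of that probe was -0.0071.

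**Figure D4:**
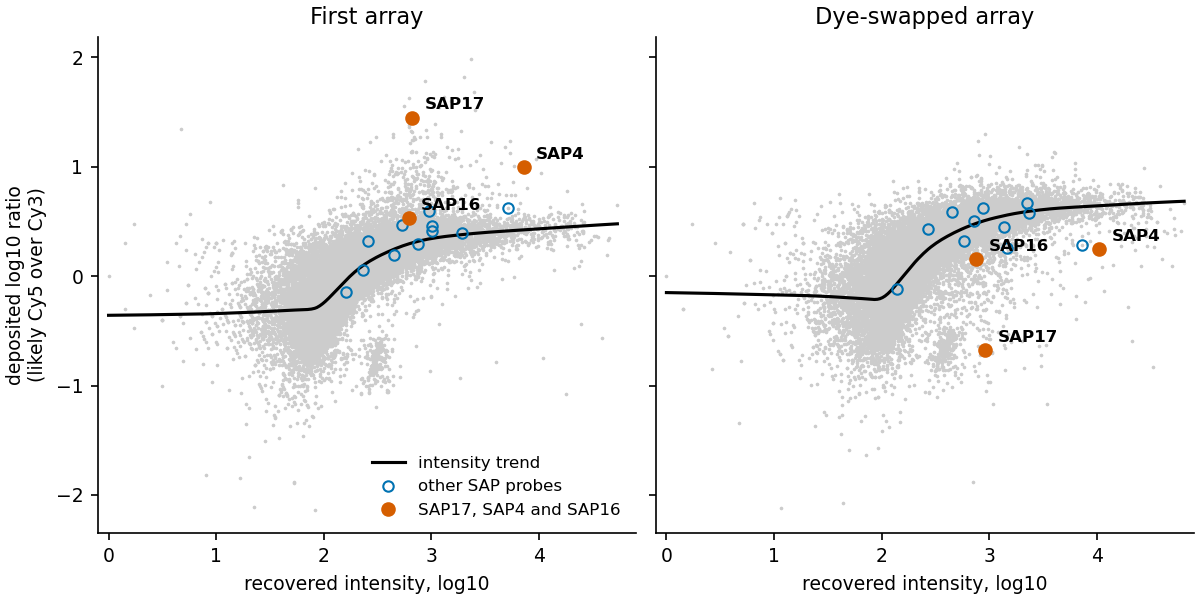
Deposited log10 ratio (vertical, likely Cy5 over Cy3) against recovered spot intensity (horizontal, log10 of the geometric mean of the channels) on the first array (left) and the dye-swapped array (right), with the loess trend in black. SAP17 lies above the trend on the first array and below it on the swapped array, at deposited values of 1.45 and -0.68. SAP4 lies above the trend on the first array and below it on the swapped array, although its deposited values, 0.998 and 0.24, are both above 0.

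The named genes whose ratios lay nearest to those of SAP17 on the 2 arrays were found among 2106 genes, each by its brightest probe. They were the mitogen-activated protein kinase MAPK5 at 3.75 and 4.13, the calmodulin-like protein CML31 at 3.55 and 3.58, and the transcription factors WRKY24 at 3.60 and 4.67 and WRKY71 at 3.05 and 3.72. The fifth was EL2, a cyclin-dependent kinase inhibitor, at 4.79 and 4.73. The distances from SAP17 ran from 0.20 log2 units for MAPK5 to 1.26 for EL2, so only MAPK5 and CML31, at 0.44, lay closer than 0.5.

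Nearest to SAP4 were PAL06, a phenylalanine ammonia-lyase of phenylpropanoid synthesis, at 1.74 and 1.16, YSL12, of a family of transporters of chelated metals, at 2.19 and 1.32, and the transcription factor NAC074 at 1.63 and 1.32. Nearest to SAP16 were UGD3, a UDP-glucose dehydrogenase of cell wall sugar synthesis, at 0.74 and 1.11, and the kinase SAPK6 at 0.83 and 1.04. SAPK6 belongs to a family that acts in osmotic stress and abscisic acid signalling, and is no zinc-finger protein in spite of its spelling. SAP11 followed them, at a distance of 0.12. Likeness over 2 arrays of the same extracts says only that the ratios were of like size.

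Gene order offers a view that the choice of members did not use. The RefSeq table of assembly ASM3414082v1 served for the order alone, since no genome build is named for the arrays. SAP17, SAP4 and SAP16 lie on different chromosomes. The genes next to SAP17 had no probe listed here. Among the 2 genes to each side of it, a probe was listed for LOC4346949 alone, which stood at 0.14 and -0.15. The genes on either side of SAP4 stood at 0.86 and -0.12 for LOC4328608 and at 0.067 and 0.30 for LOC4328613. Those beside SAP16 stood at -0.29 and -0.15 for LOC4343652 and at 1.24 and -0.90 for LOC4343654. None of these neighbours was at least 2-fold higher on both arrays, where 1.92% of all probes were. At that share so few probes would rarely hold any, so nothing is read from it.

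SAP6, SAP7 and SAP14 follow each other directly in that order. Their means were 0.28 for SAP6, 0.28 and 0.11 for the probes of SAP7, and -0.091 for SAP14. None of these 3 neighbouring genes reached 1.5-fold on both arrays. Of all 22574 probes, 825 were higher and 344 lower by as much, so nothing is read from it.

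The list for ubiquitin and the proteasome, which the A20 finger links to this family, held 30 probes of 25 genes. Of these probes, 2 passed 2-fold upwards on both arrays and 0 downwards, where 1.92% and 0.257% of all probes did. Both lay in decile 10, where 123 of 2258 probes passed upwards, and 15 of the 30 were in the brightest 2 deciles. All probes together are therefore no background of like brightness for this list, so nothing is read from the count. The polyubiquitin UBQ3, a source of free ubiquitin, was the highest at 2.08 and 1.68, and the proteasome subunit PBC1 stood at 1.35 and 1.39. With median centring neither passed 2-fold on the swapped array, where UBQ3 stood at 0.26 and PBC1 at 0.15, or at 0.24 and 0.14 with scaling. The lowest was a probe of OST1A at -0.84 and -0.25, while the other OST1A probes stood at 0.02 and -0.11, and at 0.37 and 0.42. The median over the list was 0.083, against -0.0054 over all probes. The probe of the sugar phosphate mutase gene AGM1 matched the list only by the spelling of its other name. So, by an RPN name, did those of OST1A, OST1B and RPN-II, genes of protein glycosylation rather than of the proteasome. The number of probes and the median of the list include them.

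U-box and RING ubiquitin ligases, the enzymes that attach ubiquitin, had 10 probes of 9 genes, with 0 at least 2-fold higher and 0 lower on both arrays, beside 1.92% and 0.257% of all probes. Their median was 0.052, and 7 of the 10 probes were in the dimmer 5 deciles. The highest mean, 0.46, belonged to a PUB12 probe whose arrays disagreed, at 2.41 and -1.5. The lowest, -0.15, was that of PUB73 at -0.60 and 0.30. The rice proteins reported as partners of SAPs and fixed as a list had 0 probes under their names.

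Other classes of zinc-finger genes had 66 probes, of which 5 were SAP probes under older ZFP names. Without these, 61 probes of 51 genes had a median of 0.0038, with 1 past 2-fold upwards on both arrays and 1 downwards, again beside 1.92% and 0.257% of all probes. The higher one was a probe of the CCCH protein OsC3H33 at 1.97 and 2.60, and the other, dimmer probe of that gene stood at 0.82 and 1.35. The lower one was OsC3H37 at -1.33 and -1.27, and it missed 2-fold on the first array with median centring, at -0.83, and with scaling, at -0.90. The highest mean, 3.06, was that of OsC3H63, whose arrays pointed opposite ways at -1.68 and 7.8, so it is no difference between irradiated and control seedlings that both arrays show.

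**Figure D5:**
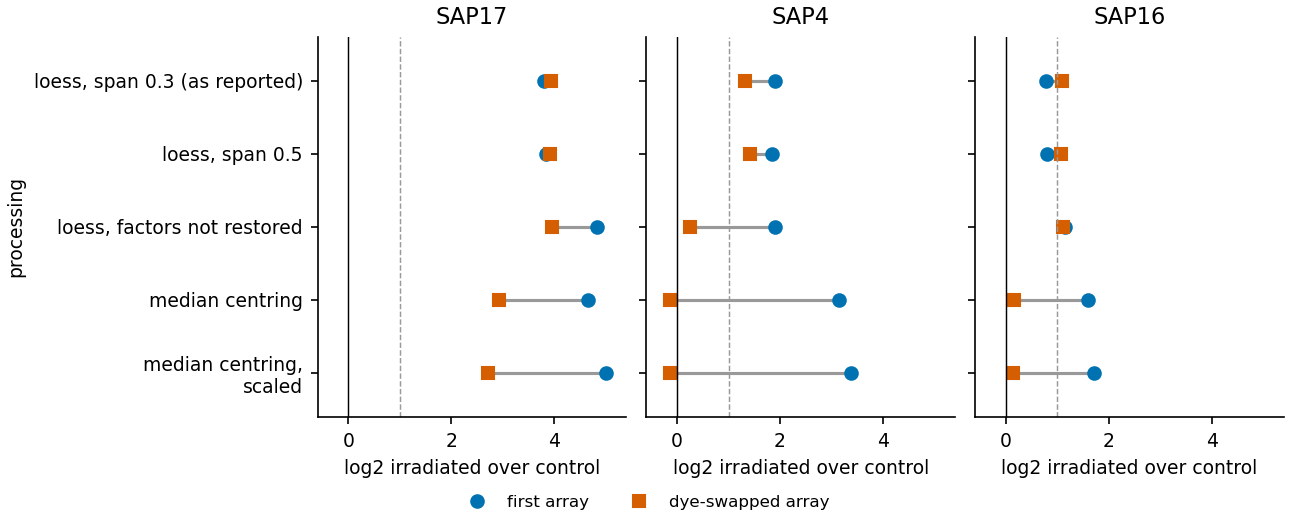
Log2 ratio of irradiated over control of SAP17, SAP4 and SAP16 on the first array (circles) and the dye-swapped array (squares) under 5 ways of processing, with the dashed line at 2-fold. SAP17 stayed above 2-fold on both arrays in all 5, between 2.71 and 5.0, whereas SAP4 fell to 0.25, -0.14 and -0.13 on the swapped array where factors were not restored or arrays were centred on their medians.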

How the data were processed

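Members and lists were chosen with earlier results of these data known. Values deposited by the authors are log10 ratios of the channels of each array, 22575 per array with 1 missing. The unit comes from the values, since most were log10 of a fraction of modest whole numbers within 9 decimals. Median terms were 143 and 163 on the first and 205 and 166 on the swapped array, and 26708 and 26404 after a small random change. A GenePix scanner and GeneSpring version 4 are named in the design text, but medians of 0.051 and 0.20 showed no centring. For background handling and the numerator, the sources used here give nothing.

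Each value was turned into its simplest fraction. Common factors up to 59 were restored with prior weight falling as the square of the factor and a t distribution (4 degrees of freedom) for the difference in log intensity between arrays. This raised the correlation of log intensity between arrays from 0.54 to 0.94 across probes, partly by construction. Factors of at least 0.1 of the top weight counted as likely. Loess (statsmodels 0.14.6, span 0.3, 3 robustness iterations) was subtracted, values were taken to log2 and the swapped array was turned, a reading settled with the data in view. As deposited the columns correlated at r = 0.67. The steps were tested on simulated data.

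The platform annotation lists 17860 probes, 17839 with 1 gene, 21 with several, and 4715 unlisted probes are unnamed here. All 17839 matched RefSeq ASM3414082v1 by gene number, and 2408 probes of 2107 genes had names. Probes were numbered down the columns of a grid of 105 by 215 from the opposite corner. Under that numbering 99.5% of 210 bright spots that follow the dye were unlisted, against 17.6% as listed, and 5 photosynthesis probes had a median intensity of 15376, against 170.4. Named genes were all SAP probes, the 5 named genes nearest to SAP17 and the 3 nearest to SAP4 and to SAP16, and the highest, lowest and 2-fold members of each list. With 1 replicate per group no test was made. Protein and promoter sequences were not used here.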

Additional observations from a re-analysis of the deposited data

How the results depend on the processing

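The mean ratio of SAP17 stayed between 3.78 and 3.94 under median centring, scaling, a span of 0.5, each array alone and the likely factors. Without restored factors it was 4.39. The trend enters the turned arrays with opposite signs, so a mean of both changes little when the trend is kept. By array SAP17 stood at 4.65 (first) and 2.92 (swapped) with median centring, and at 5.0 and 2.71 with scaling. The mean ratio of SAP4 was 1.07 without restored factors, and by a single array 1.91 (first) and 1.33 (swapped). Read as Cy3 over Cy5, SAP17, SAP4 and SAP16 had -3.87, -1.62 and -0.93, and the SAP median was -0.20. With both columns as deposited they had -0.066, 0.29 and -0.15, and the SAP median was -0.027. With annotation numbers as listed they had 0.029, -0.27 and -0.19, and the SAP median was -0.052. On the first array alone that median was 0.51.

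The 2 SAP probes at least 2-fold higher became 1 with median centring, with or without scaling, 5 on the swapped array alone, and 0 as Cy3 over Cy5, as deposited or as listed. Without restored factors there were again 2, but these were SAP17 and SAP16, the latter at 1.15 and 1.11. SAP4 then had 0.25 on the swapped array. The 0 lower became 2 as Cy3 over Cy5. Against 433 higher and 58 lower probes, there were 257 and 27 with median centring, 251 and 28 with scaling, 1759 and 1382 by the first array, 1974 and 1531 by the swapped one, 58 and 433 as Cy3 over Cy5, 825 and 344 at 1.5-fold, 183 and 5 at 3-fold, and 240 and 23 in the brightest 2 deciles. As deposited 572 were higher and 577 lower, without restored factors 414 and 65, and at a span of 0.5 433 and 56. Among the other SAP probes and the gene lists, 65 values under the alternatives moved and 146 did not. The yardstick was the robust SD of the dye part for ratios of single probes and a factor of 1.5 for counts. List medians were judged by narrower spreads, from 0.045 for ubiquitin and the proteasome to 0.175 for the ubiquitin ligases. The likely factors were chosen after the data were seen. Membership by gene description was not run, since the gene table used holds none. SAP14 lay in the fourth decile of intensity, where the robust SD of the dye part was 0.54, against 0.19 in the brightest.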
